A study of Homo sapiens with 7 samples.

Results

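A set of 10 growth factor receptor genes were followed by name through an RNA-seq experiment on pluripotent cells: KDR and FLT1, KIT and PDGFRA, ERBB2, ERBB3 and ERBB4, IGF1R and INSR, and MET. All 10 of the 10 had a row among the 19775 genes of the table, and all 10 were among the 16351 genes whose normalised read count averaged at least 10, which were tested. The cells were of the wild-type human embryonic stem cell line H1, a long-established line. They grew in E8, a defined medium that holds insulin, FGF2 and TGFβ beside transferrin, selenite and ascorbic acid in DMEM/F12. A group of 2 libraries came from cells in E8 alone, harvested at 48 h. The others came from cells given the kinase inhibitor XMD892 at 1 µM in E8, with 1 library at 12 h, 2 at 24 h and 2 at 48 h. The study's title ties this inhibitor to ERK5, the product of MAPK7, and to the balance of growth signals that the cells make for themselves.

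Receptor tyrosine kinases span the cell membrane, pair up when a growth factor binds outside, and phosphorylate each other and adaptor proteins inside, which passes the signal to the RAS-ERK and PI3K-AKT pathways. KDR (VEGFR2) is the main signalling receptor for VEGFA, and FLT1 (VEGFR1) binds VEGFA more tightly but signals weakly. In human pluripotent cells KDR is known both from the undifferentiated state and as a marker of early mesoderm, while insulin or IGF and neuregulin, the ligands of IGF1R, INSR and the ERBB3 and ERBB4 receptors, are known to aid self-renewal in defined media.

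All 19775 genes of the table together carried between 18528689 and 24148186 reads per library. The 10 pluripotency markers were all tested, and their summed normalised read count, of which POU5F1 made 31.5%, lay between 165882 and 198751 in all 7 libraries. Of these 10, 1 was called lower at 12 h (NANOG), 3 at 24 h (NANOG, SALL4 and TDGF1) and 3 at 48 h (NANOG, TDGF1 and PRDM14), and none higher, by the test and beside the shares of all genes given below. NANOG, a core pluripotency factor, had 6631 and 5818 normalised read counts in E8, 3059 at 12 h, 3904 and 4138 at 24 h, then 2552 and 3046 at 48 h, and its part in the receptor results was not tested. E8 was harvested at 48 h only, so the comparisons at 12 h and 24 h also span a difference in harvest time, and the 3 comparisons with E8 share the same E8 libraries. The labels do not say that replicates were separate cultures, so p-values measure the spread between these samples. The E8 libraries differed along transcript GC content, with a Spearman correlation of 0.65 across 16023 genes, which are not independent replicates, between GC content and the log2 difference of replicate 2 minus replicate 1. At 24 h this correlation was 0, and at 48 h it was -0.21.

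KDR fell at every time, MET fell at 24 h and 48 h, and ERBB2 and FLT1 were each called higher at a single time. Calls were made at an adjusted p under 0.05 (limma on log2 of the normalised read count plus 1). At 12 h KDR alone of the 10 was called, and lower, while 7.46% of all tested genes were called, 2.56% higher and 4.89% lower. The 12 h library has no replicate, and the fit takes it to vary as the other groups do. At 24 h, 5 of the 10 were called, ERBB2 higher and KDR, KIT, INSR and MET lower. The share of all tested genes called at 24 h was 16.2%, with 8.66% higher and 7.56% lower. At 48 h, 3 of the 10 were called, FLT1 higher and KDR and MET lower. Of all tested genes 11.5% were called at 48 h, 5.08% higher and 6.45% lower. The median log2 fold change of the 10 receptors was -0.23 at 12 h, -0.52 at 24 h and -0.35 at 48 h. Over all tested genes it was 0.02, 0.01 and 0.02.

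**Figure D1:**
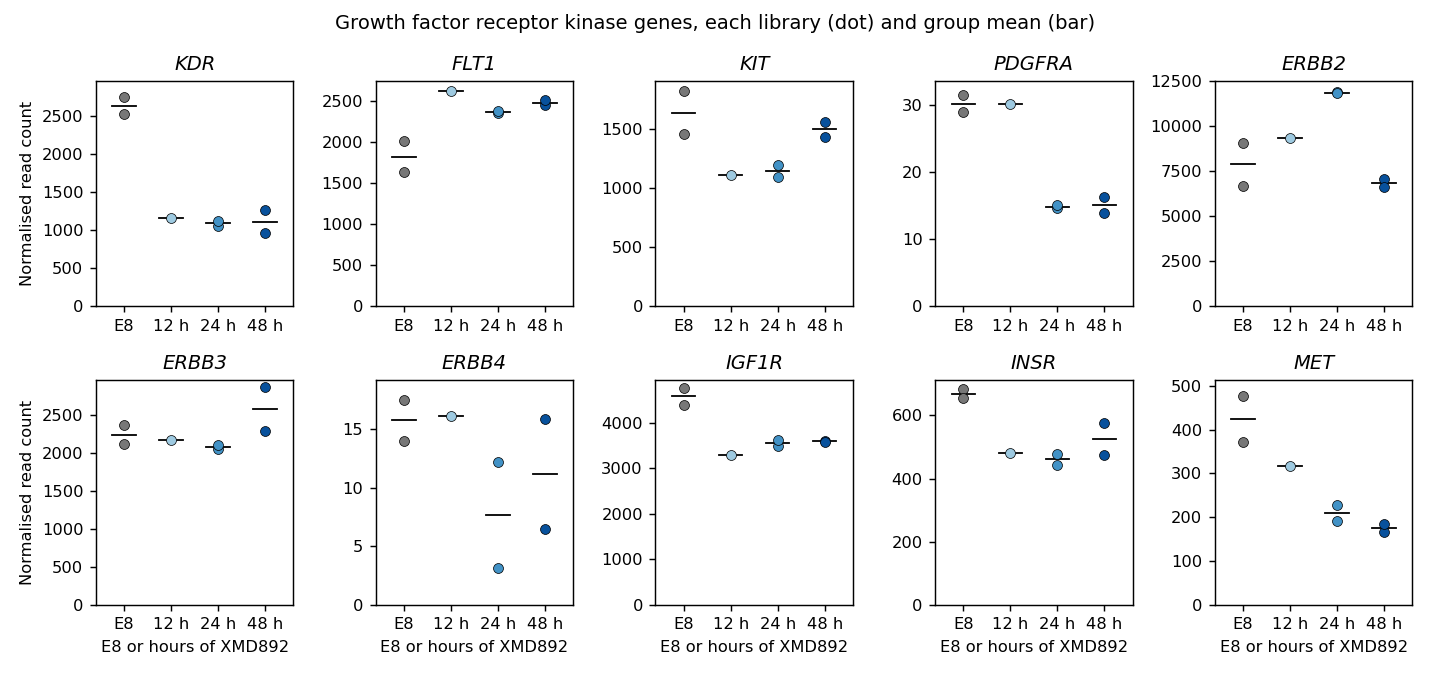
Normalised read count (vertical axis, from 0, own scale for each gene) of the 10 receptor genes in the 7 libraries, by E8 and hours of XMD892; points are libraries and bars are group means. KDR lay between 960 and 1258 in the 5 XMD892 libraries, against 2527 and 2743 in E8.

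The start regions of KDR, FLT1 and MET are shown because these 3 genes were called at 48 h. Of the short elements searched for, KDR and MET held only GC boxes, while FLT1 held others too. Each is the RefSeq promoter entry on GRCh38.p14, 250 bases before to 50 after the start. They run 5′ to 3′ on the gene's own strand, and 9 of the 10 receptors had an entry. KDR's window is chr4:55125546-55125845 on the minus strand, FLT1's is chr13:28495079-28495378 on the minus strand and MET's is chr7:116671946-116672245 on the plus strand. Capitals mark GGGCGG, a GC box, or its reverse CCGCCC, the TATA element TATAAA, and the cAMP response element TGACGTCA. All were searched on both strands.
KDR: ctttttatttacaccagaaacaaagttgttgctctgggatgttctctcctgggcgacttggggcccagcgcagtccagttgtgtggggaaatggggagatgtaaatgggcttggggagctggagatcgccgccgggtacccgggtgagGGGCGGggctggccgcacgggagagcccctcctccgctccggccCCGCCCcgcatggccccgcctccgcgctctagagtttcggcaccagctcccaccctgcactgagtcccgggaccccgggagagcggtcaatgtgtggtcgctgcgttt
FLT1: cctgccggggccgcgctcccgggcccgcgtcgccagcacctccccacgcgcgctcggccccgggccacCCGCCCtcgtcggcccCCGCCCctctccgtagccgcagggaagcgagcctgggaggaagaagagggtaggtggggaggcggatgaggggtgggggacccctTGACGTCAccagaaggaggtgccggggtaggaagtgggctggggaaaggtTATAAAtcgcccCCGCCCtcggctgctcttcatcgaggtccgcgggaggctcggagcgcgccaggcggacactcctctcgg
MET: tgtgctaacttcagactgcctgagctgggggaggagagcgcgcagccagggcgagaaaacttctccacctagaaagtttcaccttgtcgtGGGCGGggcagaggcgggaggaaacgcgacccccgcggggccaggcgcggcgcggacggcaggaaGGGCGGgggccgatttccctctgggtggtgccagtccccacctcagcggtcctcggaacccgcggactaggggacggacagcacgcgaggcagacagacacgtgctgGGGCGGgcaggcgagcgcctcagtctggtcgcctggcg
The KDR window was 65% G and C. It held a GC box at position -102 from the start and a reversed one at -58, and neither of the other elements. The FLT1 window held TATAAA at -31, TGACGTCA at -81 and 3 reversed GC boxes, while the MET window held 3 GC boxes and neither of the other elements. Among 35116 RefSeq promoter windows of the same length, 45% held a GC box, 11.5% TATAAA and 1.85% TGACGTCA on either strand. These are matches of letters, chosen with the sequences in view, and the motifs do not overlap each other in these windows.

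KDR lies on chromosome 4 (chr4:55078259-55125595, minus strand, GRCh38, GENCODE 29). Its normalised read count was 2743 and 2527 in E8, 1160 at 12 h, 1050 and 1122 at 24 h, then 1258 and 960 at 48 h. Every XMD892 library lay below both E8 libraries, and the 48 h libraries spanned the range of the other treated ones, with the 12 h library just above both 24 h libraries. KDR averaged 1109 ± 211 at 48 h of XMD892 and 2635 ± 153 in E8 (SD, n = 2 each), 2.38-fold lower by the ratio of means, with a log2 fold change of -1.26 (SE 0.16, adjusted p = 1.5e-05). At 12 h it was 2.27-fold lower (log2 fold change -1.18, SE 0.19, adjusted p = 0.00054). At 24 h it was 2.43-fold lower (-1.28, SE 0.16, adjusted p = 1.6e-05). The log2 difference of 48 h and 24 h was 0.02 (SE 0.16, adjusted p = 0.98). In these bulk samples, fewer cells of a type that expresses KDR and less KDR RNA per cell cannot be told apart.

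FLT1, on chromosome 13 (chr13:28300344-28495145, minus strand), did not follow KDR. It had 2009 and 1630 normalised read counts in E8, 2625 at 12 h, 2357 and 2384 at 24 h, then 2449 and 2511 at 48 h, so that each treated library lay above both E8 libraries. At 48 h of XMD892 it averaged 2480 ± 43.9, against 1820 ± 268 in E8 (SD, n = 2 each), 1.36-fold higher (log2 fold change 0.45, SE 0.15, adjusted p = 0.048). This call was kept in 10 of 20 alternative settings, narrowly with DESeq2, over which its adjusted p lay between 0.0016 and 0.23. It was lost with edgeR (adjusted p = 0.053), with no filter on low values (0.051), with equal library totals (0.06), in a fit of only these groups (0.082) and with the replicate block (0.072). It was also lost when either 48 h library, either 24 h library or E8 replicate 2 was left out. The log2 fold changes of 0.54 at 12 h (adjusted p = 0.072) and 0.39 at 24 h (adjusted p = 0.075) were not called. Both were called once each library's trend along GC content was removed (0.55, adjusted p = 0.0081 at 12 h, and 0.47, adjusted p = 0.0051 at 24 h).

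Set against each other within a library, the VEGF receptors changed places. Per kb of the longest transcript, the ratio of FLT1 to KDR was 0.625 and 0.551 in E8, 1.93 at 12 h, 1.92 and 1.81 at 24 h, then 1.66 and 2.23 at 48 h. FLT1 was thus the higher of the pair in all 5 treated libraries and the lower in both E8 ones. Per kb of all exons together the ratio was between 1.02 and 1.37 in the treated libraries, against 0.382 and 0.337 in E8, on the same sides of 1 as before. No test was made of these ratios, which rest on the same values as the fold changes.

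**Figure D2:**
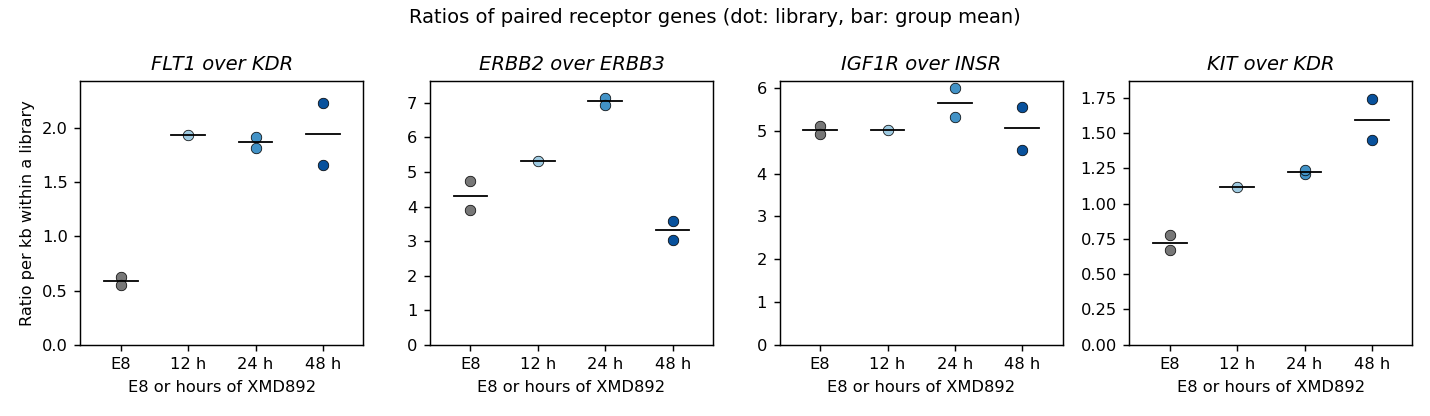
Ratio of levels per kb of the longest transcript within each library (vertical axis, from 0) for FLT1 over KDR, ERBB2 over ERBB3, IGF1R over INSR and KIT over KDR, by E8 and hours of XMD892; dots are libraries and bars are means. FLT1 over KDR was from 1.66 to 2.23 with XMD892, against 0.625 and 0.551 in E8.

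KIT, the receptor for stem cell factor (KITLG), lies beside KDR on chromosome 4 (chr4:54657918-54740715, plus strand). It had 1818 and 1459 normalised read counts in E8, 1114 at 12 h, 1090 and 1196 at 24 h, then 1561 and 1432 at 48 h. The 12 h and 24 h libraries lay below both E8 libraries, while those of 48 h overlapped E8. KIT averaged 1143 ± 74.9 at 24 h of XMD892 and 1638 ± 254 in E8 (SD, n = 2 each), with a log2 fold change of -0.51 (SE 0.15, adjusted p = 0.028). Without E8 replicate 1 this was -0.35 (adjusted p = 0.11), and without 24 h replicate 1 or replicate 2 the adjusted p was 0.26 and 0.084. At 48 h the log2 fold change was -0.12 (SE 0.15, adjusted p = 0.66), while the difference of 48 h and 24 h, 0.39, was not called in the fit of all groups (SE 0.15, adjusted p = 0.28) and was in a fit of only those groups (adjusted p = 0.036). At 12 h the log2 fold change against E8 was -0.55 (adjusted p = 0.082), or -0.52 (adjusted p = 0.017) with the GC trend removed.

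PDGFRA, the PDGF receptor alpha chain, is the third receptor gene of this stretch (chr4:54229097-54298247, plus strand) and was near the floor, with 14 to 36 reads per library. Its normalised read count was 31.4 and 28.9 in E8, 30.1 at 12 h, 14.6 and 15 at 24 h, then 16.2 and 13.9 at 48 h. The 24 h and 48 h libraries lay below the other 3, but at this depth the log2 fold changes of -0.98 (SE 0.43, adjusted p = 0.12) at 24 h and -0.96 (SE 0.43, adjusted p = 0.15) at 48 h were not called.

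PDGFRA, KIT and KDR stand within 896 kb, with gaps of 360 kb between PDGFRA and KIT and 338 kb between KIT and KDR. Of 12 further genes listed around them, 11 had a row and 10 were tested. None of the 10 was called at 48 h by limma (2 at an unadjusted p under 0.05, 1 by edgeR and 0 by DESeq2), where 11.5% of all tested genes were called, so that little can be read from this count. LNX1, which encodes a ubiquitin ligase and is named after its values were seen, was called lower at 12 h and 24 h. LNX1 had 192 and 185 normalised read counts in E8, 94.5 at 12 h, 97.9 and 97.3 at 24 h, then 120 and 118 at 48 h. SRD5A3 and TMEM165, the nearest listed genes upstream of KDR, had log2 fold changes of 0.34 (adjusted p = 0.2) and -0.00 (adjusted p = 0.99) at 48 h.

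**Figure D3:**
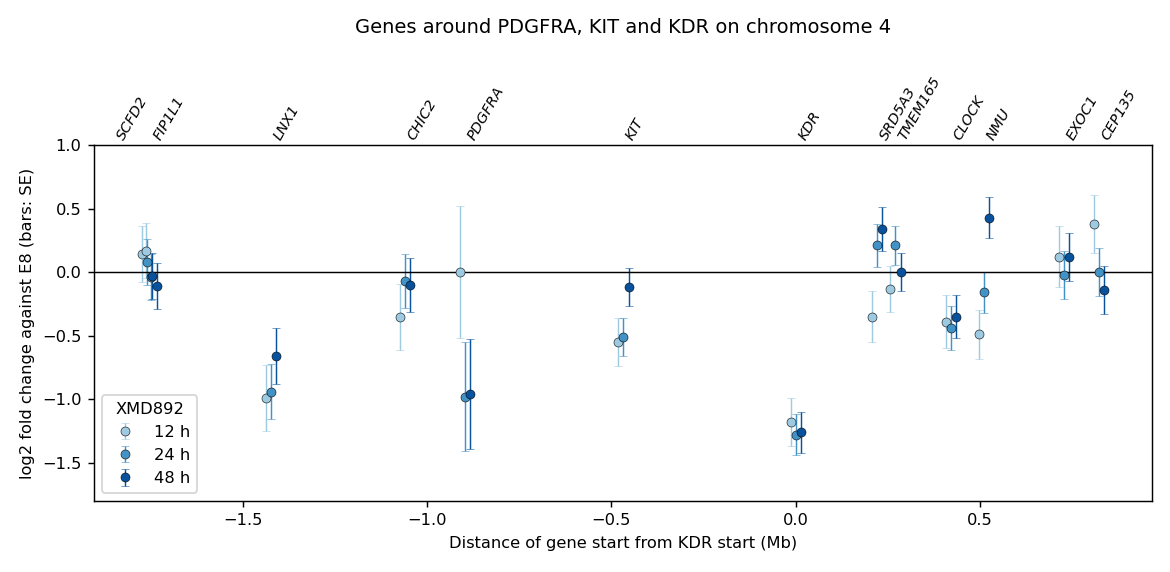
Log2 fold change against E8 (vertical axis) of tested genes around PDGFRA, KIT and KDR at 12, 24 and 48 h of XMD892, by the distance of each gene's start from the KDR start in Mb (horizontal axis, points of the 3 times set slightly apart); bars are SE. KDR lay between -1.28 and -1.18 at the 3 times, and KIT was at -0.12 at 48 h.

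Among the ERBB family, ERBB2 is an orphan receptor that works as the partner of the others, ERBB3 binds neuregulins but has a weak kinase, and ERBB4 binds neuregulins and has an active one. ERBB2 (chr17:39687914-39730426, plus strand) had 6671 and 9070 normalised read counts in E8, 9335 at 12 h, 11877 and 11859 at 24 h, then 7072 and 6642 at 48 h. It was thus highest at 24 h, and the 48 h libraries overlapped E8. ERBB2 averaged 11868 ± 12.6 at 24 h of XMD892 and 7871 ± 1696 in E8 (SD, n = 2 each), 1.51-fold higher (log2 fold change 0.61, SE 0.15, adjusted p = 0.0092). ERBB2 has the most GC-rich transcript of the 10, 59.3%, and its E8 libraries differed in the direction of the GC shift given above. With the GC trend removed, the log2 fold change was 0.40 (adjusted p = 0.0097). The call was lost without E8 replicate 1 (0.39, adjusted p = 0.05) and without 24 h replicate 1 (0.61, adjusted p = 0.059).

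Between the later times ERBB2 moved the other way, with 6857 ± 304 at 48 h and 11868 ± 12.6 at 24 h (SD, n = 2 each), 1.73-fold lower at 48 h (log2 fold change -0.79, SE 0.15, adjusted p = 0.008). It was the only one of the 10 receptors called between 48 h and 24 h, where 1.2% of all tested genes were called, 0.349% higher and 0.856% lower. The log2 value stayed between -0.84 and -0.71 in all 20 alternatives, and the call was lost when 48 h replicate 1 (adjusted p = 0.072) or replicate 2 (adjusted p = 0.089) was left out. Against E8, the 48 h value was -0.18 (adjusted p = 0.47), and it was -0.31 (adjusted p = 0.035) with the GC trend removed. Between 24 h and 12 h none of the 10 was called by limma, edgeR or DESeq2, 1 had an unadjusted p under 0.05, and 0.391% of all tested genes were called (0.263% higher and 0.128% lower).

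ERBB3 (chr12:56076799-56103505, plus strand) had 2114 and 2368 normalised read counts in E8, 2168 at 12 h, 2056 and 2111 at 24 h, then 2871 and 2286 at 48 h. Its groups overlapped or lay close together, and its log2 fold changes were -0.05 at 12 h (adjusted p = 0.92), -0.10 at 24 h (adjusted p = 0.69) and 0.20 at 48 h (adjusted p = 0.44). The ratio of ERBB2 to ERBB3 per kb of the longest transcript was 3.9 and 4.73 in E8, 5.32 at 12 h, 7.14 and 6.94 at 24 h, then 3.04 and 3.59 at 48 h. ERBB4 (chr2:211375717-212538841, minus strand) was counted by 20 and 17 reads in E8, 15 at 12 h, 3 and 13 at 24 h, then 6 and 16 at 48 h. A change in ERBB4 was not detectable at this depth (at 48 h, log2 fold change -0.57, SE 0.64, adjusted p = 0.61).

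ERBB2 overlaps PGAP3 and MIEN1, which lie on the opposite strand and are counted in the same table. Whether counting used strand is not given in the sources used here, so reads in these overlaps cannot be told apart. At 24 h of XMD892 PGAP3 had 593 and 552 normalised read counts, against 414 and 521 in E8, and was not called (log2 fold change 0.30, adjusted p = 0.27). MIEN1 had 232 and 351 in E8, 315 at 12 h, 459 and 403 at 24 h, then 419 and 511 at 48 h. It was called higher at 24 h (0.59, adjusted p = 0.047) and at 48 h (0.69, adjusted p = 0.026), when the ERBB2 libraries overlapped E8. The 48 h call of MIEN1 was lost without E8 replicate 1 (0.40, adjusted p = 0.18) and without either 48 h library. Of the 9 listed genes around ERBB2, all tested, 3 were called higher (STARD3, TCAP and MIEN1) and 1 lower (IKZF3) at 24 h, and 1 higher (MIEN1) and 2 lower (PPP1R1B and PNMT) at 48 h. Of these 9, edgeR called 3 and DESeq2 called 1 at 24 h, and they called 3 and 2 at 48 h. TCAP, at 10.5 to 42.1, and IKZF3, at 6.55 to 31.4, were near the floor. Of all tested genes, 16.2% were called at 24 h and 11.5% at 48 h. The 48 h calls of PPP1R1B and PNMT were lost without either 48 h library and without E8 replicate 2. STARD3, a cholesterol-binding protein gene named after its values were seen, had 939 and 1246 in E8, 1325 at 12 h, 1864 and 1559 at 24 h, then 1436 and 1330 at 48 h.

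IGF1R and INSR are the receptors for IGFs and insulin, and insulin is part of the E8 medium in every group. IGF1R (chr15:98648539-98964530, plus strand) had 4775 and 4402 normalised read counts in E8, 3299 at 12 h, 3489 and 3623 at 24 h, then 3593 and 3592 at 48 h. All 5 treated libraries lay below both E8 libraries, but the log2 fold changes of -0.47 at 12 h (adjusted p = 0.089), -0.37 at 24 h (adjusted p = 0.073) and -0.35 at 48 h (SE 0.14, adjusted p = 0.1) were not called. With the GC trend removed all 3 passed (-0.53, -0.41 and -0.41, each at adjusted p = 0.012). IGF1R overlaps AC036108.1, a gene on the opposite strand, and AC118658.1, which lies on its own strand within an intron, and both are counted in the table.

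INSR (chr19:7112255-7294034, minus strand) had 684 and 654 normalised read counts in E8, 481 at 12 h, 479 and 442 at 24 h, then 577 and 473 at 48 h. All 5 treated libraries again lay below both E8 libraries, and at 24 h the log2 fold change was -0.54 (adjusted p = 0.032). That call was lost without E8 replicate 1 (adjusted p = 0.054) and without 24 h replicate 1 (0.13) or replicate 2 (0.21). At 12 h the log2 fold change was -0.48 (adjusted p = 0.17) and at 48 h it was -0.36 (SE 0.17, adjusted p = 0.18). With the GC trend removed INSR was called at 12 h (-0.50, adjusted p = 0.038), 24 h (-0.52, 0.0092) and 48 h (-0.38, 0.044). The 12 h change was called in 2 of 19 alternatives and the 48 h change in 1 of 20. The ratio of IGF1R to INSR per kb was 5.11 and 4.92 in E8, 5.02 at 12 h, 5.33 and 5.99 at 24 h, then 4.56 and 5.56 at 48 h, so the E8 values lay inside the range of the treated ones.

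MET, the receptor for hepatocyte growth factor, lies on chromosome 7 (chr7:116672390-116798386, plus strand). Its normalised read count was 477 and 372 in E8, 318 at 12 h, 192 and 228 at 24 h, then 167 and 184 at 48 h. The 24 h and 48 h libraries lay below the 12 h library, which lay below both E8 libraries. The log2 fold change of MET was -0.40 at 12 h (adjusted p = 0.33), where none of the 19 alternatives called it. It was -1.01 at 24 h (adjusted p = 0.0015) and -1.26 at 48 h (SE 0.19, adjusted p = 0.00017), 2.41-fold lower, and all 20 alternatives called it at each of these times. KDR was called in all of the alternatives run at 12 h (19), 24 h (20) and 48 h (20), with log2 fold changes at 48 h between -1.45 and -1.06.

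**Figure D4:**
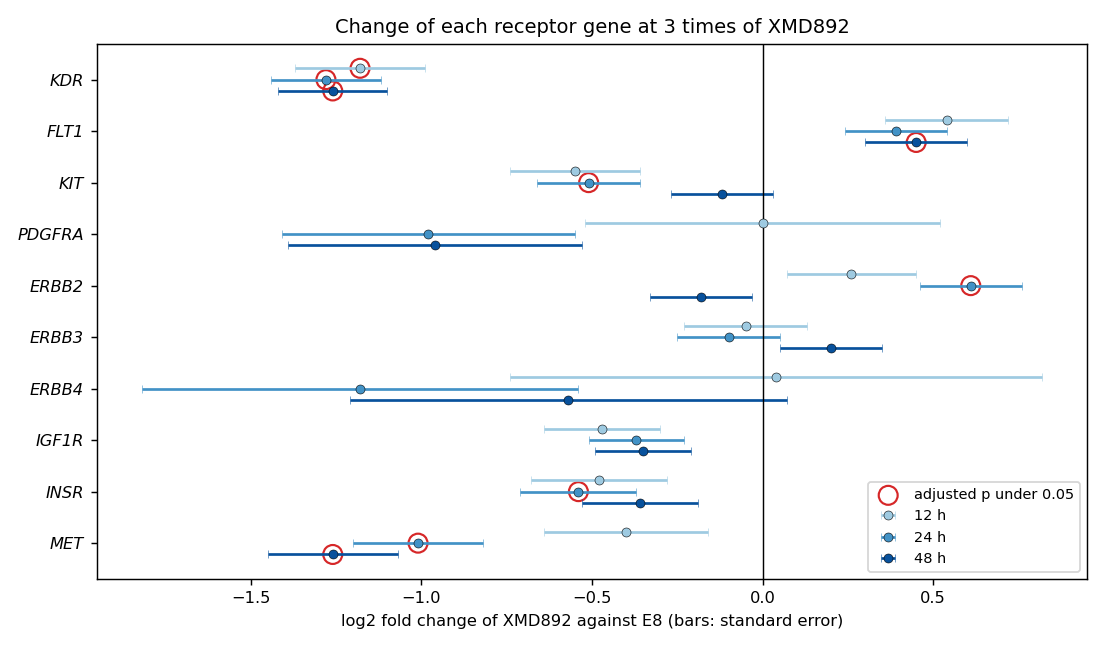
Log2 fold change against E8 (horizontal axis) of the 10 receptors at 12, 24 and 48 h of XMD892, with SE bars; red rings mark calls at an adjusted p under 0.05. KDR was called at all 3 times, MET at 24 and 48 h, FLT1 at 48 h, and ERBB2, KIT and INSR at 24 h.

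Levels can be compared between genes only per length, here the normalised read count per kb of the longest annotated transcript. In E8 the order began with ERBB2 (1642 ± 354, SD, n = 2), KDR (435 ± 25.3), ERBB3 (379 ± 30.4), IGF1R (375 ± 21.6) and KIT (316 ± 48.9). It went on with FLT1 (257 ± 37.8), INSR (74.7 ± 2.31), MET (63.9 ± 11.2), PDGFRA (4.59 ± 0.27) and ERBB4 (1.3 ± 0.199). ERBB3 and IGF1R overlapped in their libraries, as did KIT and FLT1, so neither pair can be ordered. KDR stood at rank 2 in E8 and at rank 6 at 12 h, 24 h and 48 h, by the longest transcript and by all exons together. At 24 h no neighbours in the order overlapped, from ERBB2 (2477 ± 2.63 per kb) and ERBB3 (352 ± 6.61) to FLT1 (334 ± 2.74), IGF1R (291 ± 7.79), KIT (220 ± 14.4) and KDR (179 ± 8.49). At 48 h ERBB2 (1431 ± 63.5 per kb) was followed by ERBB3 (436 ± 69.9), FLT1 (350 ± 6.19), IGF1R (294 ± 0.0285), KIT (289 ± 17.6) and KDR (183 ± 34.8), with IGF1R and KIT overlapping. ERBB2 held 46.3% of the summed per-kb level of the 10 in E8, 56.2% at 12 h, 62.9% at 24 h and 46.6% at 48 h. Per kb of all exons these shares were 33%, 43.9%, 50.6% and 34.6%, and the order of ERBB3, IGF1R, KIT and FLT1 changed with that choice of length.

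**Figure D5:**
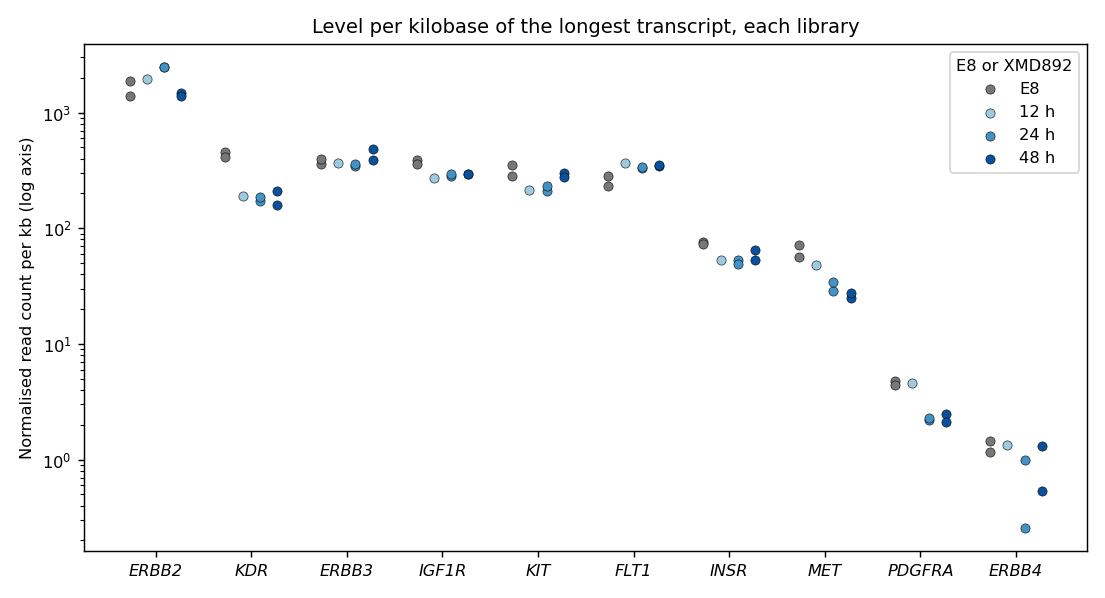
Normalised read count per kb of the longest transcript (log scale) of the 10 receptors in E8 and at 12, 24 and 48 h of XMD892; points are libraries. ERBB2 was the highest in every group, and KDR lay below ERBB3, FLT1, IGF1R and KIT in all treated groups.

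The genes that bind or serve these receptors are described by counts and medians, to be read beside the shares of all tested genes called (7.46% at 12 h, 16.2% at 24 h and 11.5% at 48 h), and genes called at 12 h or 24 h alone are named after their values were seen. Of 26 ligand symbols, among which VEGFD and FIGF name the same gene, 17 had a row and 15 were tested. None was called higher at any time and 1 was called lower at each. This was PDGFB, the PDGF B chain, at 12 h and 48 h, and VEGFC, a ligand of FLT4 and KDR, at 24 h. At an unadjusted p under 0.05 there were 4 of the 15 at 12 h, 5 at 24 h and 4 at 48 h, while edgeR called 1 at each time and DESeq2 called 0. The median log2 fold change of the tested ligands was -0.31 at 12 h, -0.11 at 24 h and -0.23 at 48 h. VEGFA, the ligand of KDR and FLT1, had 801 and 1046 normalised read counts in E8, 664 at 12 h, 723 and 727 at 24 h, then 858 and 853 at 48 h, and was not called (at 48 h, log2 fold change -0.10, adjusted p = 0.75). KITLG, the ligand of KIT, had 252 and 286 at 48 h, against 304 and 223 in E8 (0.04, adjusted p = 0.92), and IGF2, the IGF1R ligand with a row, had 55.1 and 70.4 at 48 h, against 78.6 and 104 in E8 (-0.53, adjusted p = 0.33). NRG1 was between 4.13 and 20.1 in all 7 libraries.

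PDGFB averaged 80.7 ± 18.7 normalised read counts at 48 h of XMD892 and 141 ± 22.7 in E8 (SD, n = 2 each; log2 fold change -0.81, adjusted p = 0.045), and this call did not hold with DESeq2 (adjusted p = 0.09), without E8 replicate 2 (0.11) or without either 48 h library. Among the co-receptors and close relatives, 8 of 10 had a row and 6 were tested, with 2 called lower at 48 h (NRP2 and PDGFRB), 1 at 24 h (PDGFRB) and 1 at 12 h (FLT4), and none higher at these times. FLT4 (VEGFR3), the receptor for VEGFC and a close relative of KDR, had 603 and 747 normalised read counts in E8, 361 at 12 h, 410 and 542 at 24 h, then 594 and 533 at 48 h. All its treated libraries lay below both E8 libraries, with log2 fold changes of -0.89 at 12 h (adjusted p = 0.014), -0.51 at 24 h (adjusted p = 0.056) and -0.25 at 48 h (adjusted p = 0.39). NRP2, a neuropilin that serves VEGF receptors and plexins, had 898 and 943 in E8, 1306 at 12 h, 1018 and 977 at 24 h, then 502 and 443 at 48 h. The 12 h and 24 h libraries lay above E8 without a call, and those of 48 h lay below it, 1.95-fold lower (log2 fold change -0.96, adjusted p = 0.00027). NRP2 was 2.11-fold lower at 48 h than at 24 h (-1.08, SE 0.15, adjusted p = 0.00047). PDGFRB, the PDGF receptor beta chain, had 18.4 and 33.7 at 48 h, against 63.7 and 66.9 in E8 (-1.35, adjusted p = 0.018), and was not called with DESeq2 (adjusted p = 0.054), without E8 replicate 1 (0.057) or without 48 h replicate 1 (-0.93, adjusted p = 0.24). NRP1, the other neuropilin, was too low to be tested, with 1.08 and 0.992 at 48 h, against 2.62 and 5.78 in E8.

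Of 27 tested adaptors and effectors, 1 was called higher and 1 lower at 48 h. PIK3R3, a regulatory subunit of PI3K, averaged 826 ± 107 at 48 h of XMD892 and 510 ± 40.9 in E8 (SD, n = 2 each; log2 fold change 0.69, adjusted p = 0.0087), and was not called without 48 h replicate 1 (0.56, adjusted p = 0.17). SHC3, an SHC adaptor, averaged 628 ± 18.8 at 48 h and 1024 ± 21.9 in E8 (-0.70, adjusted p = 0.004), and was not called without 48 h replicate 2 (-0.67, adjusted p = 0.06). IRS2, an insulin receptor substrate, was not called at 48 h (-0.43, adjusted p = 0.077), but was with the GC trend removed (-0.55, adjusted p = 0.0069). At 24 h IRS4, of the same family, was the only one of the 27 called, lower. At 12 h none of the 27 was called by limma, edgeR or DESeq2, and 3 had an unadjusted p under 0.05.

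Of 21 inhibitors and turnover factors of receptor kinases, all tested, 2 were called lower at 48 h, PTPRB and ERRFI1, and none higher. At 12 h and at 24 h SOCS3, a cytokine signalling inhibitor, was called higher and PTPRB lower. PTPRB encodes VE-PTP, a phosphatase known to dephosphorylate the endothelial receptor TEK and to restrain KDR. Its normalised read count was 522 and 511 in E8, 51.5 at 12 h, 100 and 123 at 24 h, then 116 and 81.3 at 48 h. All treated libraries lay far below E8, 10-fold lower at 12 h (log2 fold change -3.30, SE 0.27, adjusted p = 1.1e-07) and 5.25-fold lower at 48 h (-2.40, SE 0.22, adjusted p = 2.8e-07). ERRFI1, a feedback inhibitor of ERBB receptors, averaged 674 ± 29.6 at 48 h and 1061 ± 73.1 in E8 (SD, n = 2 each; -0.65, adjusted p = 0.0077), and was not called without 48 h replicate 1 (adjusted p = 0.1) or replicate 2 (0.053).

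Among 41 further receptor tyrosine kinases, 36 had a row and 32 were tested. At 12 h FGFR3 was called higher and EPHB3, RET and AATK lower. At 24 h FGFR3 and LMTK3 were called higher and EPHB6 and AATK lower. At 48 h FGFR3 was called higher and AXL and EPHB6 lower. FGFR3, a receptor for FGFs, had 755 and 952 normalised read counts in E8, 1369 at 12 h, 1094 and 1403 at 24 h, then 1319 and 1302 at 48 h (log2 fold change at 48 h 0.63, adjusted p = 0.015). Without 48 h replicate 1 or replicate 2 the call was lost (adjusted p = 0.12 and 0.096). AXL, the receptor for GAS6, had 302 and 346 in E8, 468 at 12 h, 311 and 295 at 24 h, then 189 and 193 at 48 h (-0.76, adjusted p = 0.0084), and its 48 h call was likewise lost (adjusted p = 0.078 and 0.06). EPHB6, an ephrin receptor without kinase activity, averaged 134 ± 16.1 at 48 h and 324 ± 58.2 in E8 (SD, n = 2 each; -1.26, adjusted p = 0.00028). The median log2 fold change of the 32 was -0.16 at 12 h, -0.08 at 24 h and -0.02 at 48 h. MAPK7 itself had 672 and 764 at 48 h, against 711 and 727 in E8, and was not called (-0.01, adjusted p = 0.99).

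The 5 genes whose pattern over the 7 libraries was most like that of KDR, among 11365 tested genes with a mean of 100 or more, were ATXN7L1, PLEKHA6, TRDN, PAX5 and GJA1. Likeness was the root mean square difference of log2 values centred on each gene's mean, which ran from 0.10 for ATXN7L1 to 0.151 for GJA1. PLEKHA6 had 417 and 416 normalised read counts in E8, 175 at 12 h, 140 and 153 at 24 h, then 167 and 146 at 48 h. GJA1, which encodes the gap junction protein connexin 43, had 18110 and 14938 in E8, 9130 at 12 h, 7602 and 7821 at 24 h, then 8475 and 7960 at 48 h. PAX5, a transcription factor known from B cells, had 545 and 535 in E8, 246 at 12 h, 177 and 243 at 24 h, then 226 and 205 at 48 h. These genes were picked for this likeness, so their values carry no test here.

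Markers of other cell types in which these receptors are known were set beside the results. Of 12 endothelial markers, 7 had a row and 6 were tested; PECAM1, CDH5, CD34, EMCN and ROBO4 are not analysed here. Their summed normalised read count was 842 and 1419 in E8, 861 at 12 h, 1441 and 1302 at 24 h, then 1377 and 1267 at 48 h. EGFL7 made 85.3% of it, and the treated libraries overlapped E8, so the sum mostly follows that gene. The median log2 fold change of the 6 tested markers was -0.78 at 12 h, -0.40 at 24 h and -0.59 at 48 h. CLDN5 had 47.1 and 43 in E8, 24.7 at 12 h, 31.2 and 29.9 at 24 h, then 18.4 and 27.8 at 48 h, without a call. TEK, TIE1 and VWF overlapped E8, and the part of this list in the KDR result was not tested. ERG, an endothelial transcription factor gene, had 88.2 and 116 in E8, 38.6 at 12 h, 47.9 and 49.6 at 24 h, then 50.8 and 48.6 at 48 h, and was called lower at each time. It was the only one of the 6 tested markers of this list that was called.

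Of 11 mesoderm and primitive streak symbols, among which T and TBXT name the same gene, 8 had a row (T among them), with MIXL1 at 51.3% of their sum. The sum was 423 and 407 in E8, 116 at 12 h, 161 and 157 at 24 h, then 143 and 157 at 48 h. The 4 of 7 trophoblast and amnion markers with a row summed to 277 and 349 in E8, 125 at 12 h, 81.2 and 92.6 at 24 h, then 112 and 147 at 48 h. Both sums were lower in all treated libraries than in E8, as KDR was, and their part in the KDR result was not tested. Of the 4 tested mesoderm markers, MIXL1 was called lower at each time and PDGFRB at 24 h and 48 h, while MESP1 and TBX6 were not called. EOMES, too low to be tested, had 6.98 and 6.61 in E8 and 7.51 to 15 in the treated libraries. Of the 2 tested trophoblast and amnion markers, GATA2 was called lower at each time and KRT7 at 12 h and 24 h. The shares of all tested genes called are given above. The 4 of 7 blood progenitor markers with a row summed to 82.1 and 73.5 in E8, 125 at 12 h, 114 and 95.4 at 24 h, then 93.9 and 97.2 at 48 h. Of the 2 tested, LMO2, at 63.1% of the sum, was called higher at 12 h and 24 h, and RUNX1 was not called. At each of these times edgeR called 1 of the 2 and DESeq2 called 0. The endoderm list held CXCR4 alone, at 27.9 to 55.2. The neural sum, with NES at 79.7%, was 9483 and 13066 in E8, 21244 at 12 h, 15978 and 14796 at 24 h, then 10930 and 11853 at 48 h, and its part in the results was not tested. Of the 6 tested neural markers, NES and MAP2 were called higher at 12 h and 24 h, and SOX1 and MAP2 at 48 h. OTX2 went the other way and was called lower at 24 h and 48 h. It had 227 and 197 in E8, 29.2 and 74.8 at 24 h, then 107 and 89.3 at 48 h.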

How the data were processed

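Poly(A) RNA of 7 samples was sequenced as paired-end reads, per the labels' protocols. The authors deposited 1 table of a signal per gene, which the values show to be read counts scaled by a factor of each library. Values were within 0.1 of whole multiples of their library's smallest step (100% of them), which gave back whole reads. Per the submitters' processing notes, Trimmomatic 0.36, STAR, featureCounts 1.5.3, DESeq2 1.26.0 and hg38 were used. Their roles, the annotation, any filter and the use of strand are not given in the sources used here. Another 2 columns matched no sample and were not used.

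The test was limma 3.58.1 (R 4.3.3) on log2 of the value plus a pseudocount of 1, which understates changes of low genes. It ran on the 16351 genes averaging at least 10, with a mean for each group, a trended prior variance, 3 residual degrees of freedom and 18.4 prior ones. Adjusted p-values are by Benjamini-Hochberg across those genes. Alternatives were other pseudocounts, filters and scalings, edgeR 4.0.16 and DESeq2 1.42.0 on whole reads, robust moderation, only the 2 groups compared, a replicate block, a loess along GC content (span 0.3) removed from each library, and each replicate left out. Removing the GC trend and 1 E8 library together was added after seeing the data. The fits were run on simulated counts with known changes, edgeR and DESeq2 for 48 h against E8 only. These counts had the same dispersion for every gene and no GC shift, so they cannot show how the fits do under the spread of these libraries.

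Positions and lengths are from GENCODE 29 on GRCh38, matched by symbol for 97.7% of the genes, and promoter sequences are from RefSeq. The receptors and the gene lists were chosen with earlier results of these data known. The genes named are the 10 receptors, the 5 genes most like KDR, up to 4 called members of each list by size at 48 h, a few ligands and adaptors, and MAPK7.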

Additional observations from a re-analysis of the deposited data

Results flagged for a closer look

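ERBB2 and NRP2 differed between 48 h and 24 h of XMD892 by a direct test of those 2 groups. ERBB2 had a log2 fold change of -0.79 at 48 h relative to 24 h (adjusted p = 0.008, limma), after a log2 fold change of 0.61 at 24 h against E8. NRP2 had a log2 fold change of -1.08 at 48 h relative to 24 h (adjusted p = 0.00047). No group held 4 or more libraries, so single libraries were not screened for standing apart.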

How the results depend on the processing

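KDR at 12, 24 and 48 h and MET at 24 and 48 h kept their calls in every alternative run, while FLT1, ERBB2, KIT and INSR lost theirs as the report gives. The count of all genes called, against which the receptors are read, moved more. At 12 h it was 1219, and 2552 with the GC trend removed (1974 and 2641 with E8 replicate 1 or 2 also left out). At 48 h it was 1884, and 3119 with the GC trend removed (3137 without E8 replicate 2 as well). Between 48 h and 24 h it was 197, against 1043 in a fit of only these groups, 384 with the GC trend removed and 780 and 784 when E8 replicate 1 or 2 was also left out. Between 24 h and 12 h it was 64, against 119 with DESeq2 and 277 and 271 with the GC trend removed and E8 replicate 1 or 2 left out. Leaving out single replicates gave 1021 to 2941 calls at 12 h, 1105 to 4917 at 24 h, 791 to 4057 at 48 h, 64 to 1045 between 48 h and 24 h and 31 to 734 between 24 h and 12 h. Without E8 replicate 2, 2390 genes were called higher and 1667 lower at 48 h (830 and 1054 with all libraries) and 1676 higher and 1265 lower at 12 h (419 and 800). At 24 h the balance of 1416 higher and 1236 lower turned to 1516 and 1745 with the GC trend removed, 1286 and 1326 with edgeR and 1076 and 1084 with DESeq2. It also turned without E8 replicate 1 and without either 24 h library, but not without E8 replicate 2. With the GC trend removed as well, it again turned without E8 replicate 1 and not without E8 replicate 2. The cause was not tested.

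Among the receptors and named genes compared, directions turned only for log2 fold changes that were not called in the main fit. The receptors were compared across alternatives for all comparisons but 24 h against 12 h, and other named genes at most for 48 h against E8. With the GC trend removed, with or without an E8 replicate, the difference of 48 h and 24 h was -0.03 for KDR and -0.03 for PDGFRA, and PDGFRA at 12 h was 0.03, or 0.05 without E8 replicate 2 as well. Without E8 replicate 1 as well, KIT was 0.01 and MAPK7 0.04 at 48 h. NRG1 at 48 h was -0.01 with a pseudocount of 5, -0.22 with edgeR, -0.25 with DESeq2 and -0.83 with the GC trend and E8 replicate 2 removed. With single replicates left out, values at 12 h ran from -0.06 to 0.05 for PDGFRA, -0.13 to 0.04 for ERBB3 and -0.11 to 0.18 for ERBB4. Values at 48 h ran from -0.28 to 0.04 for KIT, -0.40 to 0.04 for ERBB2, -1.16 to 0.02 for ERBB4, -0.18 to 0.26 for KITLG, -0.10 to 0.09 for MAPK7, -0.95 to 1.09 for NRG1 and -0.29 to 0.09 for VEGFA. Between 48 h and 24 h they ran from -0.18 to 0.21 for KDR, -0.08 to 0.12 for PDGFRA, -0.23 to 1.45 for ERBB4 and -0.01 to 0.04 for IGF1R.

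Whether same-numbered libraries were paired is not given in the labels. Their deviations from group means correlated at -0.04, -0.05 and -0.07 across genes. With so few libraries per group, and E8 libraries that differed along GC content, this cannot exclude pairing. With the replicate block 1231 genes were called at 12 h, 2630 at 24 h and 1955 at 48 h, and among the receptor calls FLT1 at 48 h missed the threshold (adjusted p = 0.072). Depth limits ERBB4 and PDGFRA, which had 3 to 36 reads per library.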
